A study of Homo sapiens with 9 samples.

Results

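LIM1215-R2 is a cetuximab-resistant population of the colorectal cancer cell line LIM1215, and its transcriptome was compared here with that of the parental line, gene by gene. Its 3 libraries and the 3 parental libraries were taken from a series of 9, the other 3 being those of LIM1215-R1, a second resistant population. The 6 count tables listed 58920 genes by symbol, 27091 of them had at least 1 count, and the 17869 genes with at least 10 counts summed over the 6 libraries were tested. LIM1215 is wild type for RAS and sensitive to inhibitors of the epidermal growth factor receptor, EGFR. R1 and R2 were selected in parallel from it over months of culture in rising concentrations of cetuximab, while the parental cells were passaged alongside without drug. The study describes an activating mutation of a RAS gene in a part of the cells of R1 and of R2, at a different site in each, so that neither is wild type for RAS throughout. Each resistant line is a mixed population and not a clone, and it was maintained in medium with cetuximab. RNA came from cells in basal, untreated culture, and how long the resistant cells had been without cetuximab at harvest is not stated. All 3 lines share the LIM1215 background, and none received another agent. The study calls the 3 libraries of a line technical replicates without naming the step at which they were separated, so the p-values measure the spread between these libraries, and whether the lines or their handling before extraction differ cannot be told apart.

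Cetuximab is an antibody that binds the outer part of EGFR and keeps ligands such as EGF, amphiregulin and epiregulin from activating it. Active EGFR signals through RAS and the MAPK cascade, which raises the transcription of its own feedback inhibitors, the DUSP, SPRY and SPRED genes, and of growth genes such as CCND1. In colorectal epithelium this input acts beside Wnt signalling, which keeps cells stem-like. Transcription factors of the CDX, HNF4 and GATA families act there too, and under them cells mature into absorptive or mucus-producing cells.

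Total counts were 13737416 to 18725014 per library, and levels are given as CPM, the count scaled to library size with TMM factors. A gene with 0 counts in 1 library could still have had 0.158 to 0.217 CPM, the level of 3 counts, and these limits and the counting intervals below cover counting error only. The common biological coefficient of variation was 4.55%. Of 14 markers of colorectal epithelium 13 were tested, and their summed level was 13956 to 14345 CPM in the parental and 15866 to 16284 CPM in the R2 libraries, while KRT20 had 0 counts. KRT8 and KRT18 were the largest parts of this sum, at 5717 and 4131 CPM in parental and 7170 and 5008 CPM in R2 cells. In the test given below, 5 of the 13 were higher and 6 lower in R2, with a median log2 fold change of -0.12. Markers of leukocytes, fibroblasts and endothelium summed to at most 10.8, 3.2 and 0.72 CPM in any library, with PTPRC, CD3E, CD2, MS4A1, TYROBP, COL1A2, POSTN, CDH5 and KDR at 0. Of the erythroid markers, HBA2 was at 16.2 CPM in parental and 25.4 CPM in R2 cells, and ALAS2 was at 0.

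R2 differed from the parental line in a large share of its genes, mostly by small amounts. In edgeR's quasi-likelihood test, with p-values adjusted over all genes tested by the method of Benjamini and Hochberg, 2440 genes (13.7%) were higher and 2327 (13%) lower at an adjusted p of at most 0.01, which is 26.7% in all. In the following, a gene "rose" or "fell" if it passed this test. Of the genes that passed, 2388 changed by less than 0.5 on the log2 scale. A differentially expressed gene, or DEG, also had to change by a log2 fold change of at least 1.5 in either direction. There were 936 DEGs (5.24%), 500 higher (2.8%) and 436 lower (2.44%), and the median change of all genes was -0.01. Of the DEGs, 773 were protein-coding, 119 were long non-coding RNAs and 25 pseudogenes. A total of 435 changed by a log2 fold change of at least 3, and in 290 the mean was below 10 counts a library. With at least 10 counts required in every library there were 309 DEGs, and 412 when the test was made against the fold threshold itself. The DEG nearest to the fold threshold and the nearest gene left out both changed by 1.5 when rounded. In these bulk libraries, a change in the share of cells that express a gene and a change in its RNA per cell cannot be told apart.

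**Figure D1:**
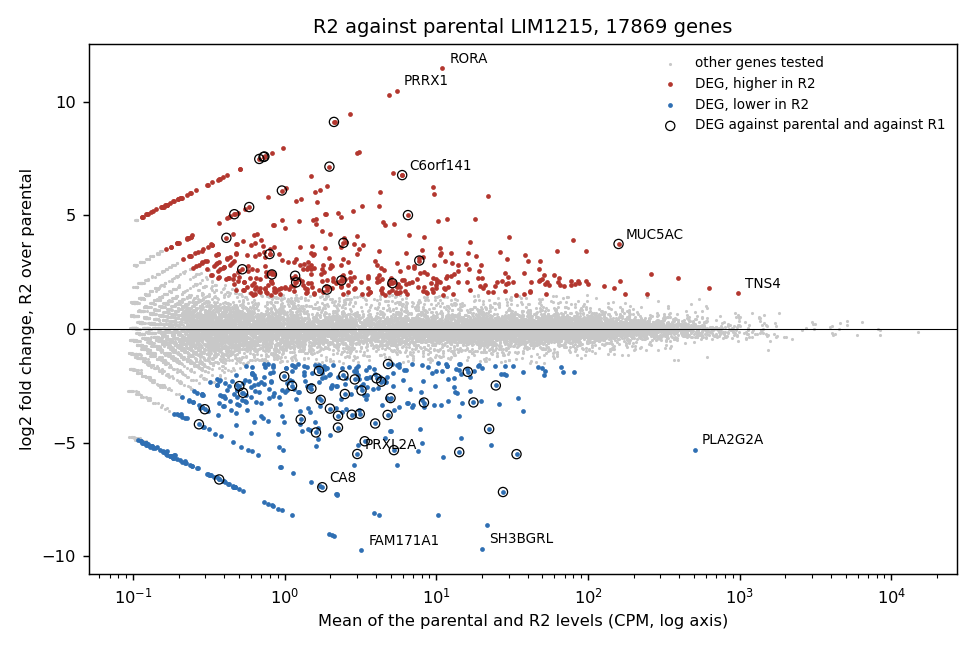
Each point is 1 of the 17869 genes, with the mean of its parental and R2 levels (CPM, log axis) against its log2 fold change, R2 over parental. Red and blue points are the 500 DEGs that were higher and the 436 that were lower in R2, and circles mark the 61 genes that also passed the DEG threshold against R1 in the same direction. MUC5AC stands out among the circled genes by its level and PLA2G2A among those that fell.

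The most abundant DEG that rose was TNS4, a tensin of focal adhesions, at 465, 546 and 451 CPM in the parental libraries and 1432, 1474 and 1486 CPM in the R2 libraries. CEMIP, which takes part in the breakdown of hyaluronan, rose from 282 ± 4.57 to 973 ± 23.1 CPM (mean ± SD, n = 3; log2 fold change 1.79, SE 0.0389, edgeR adjusted p = 3.32e-23). CEACAM5, the carcinoembryonic antigen, was at 129.8, 148 and 131 CPM in parental and 644, 644 and 656 CPM in R2 cells. In all 3 genes the lowest R2 library lay above the highest parental one, which their choice as DEGs made likely. PHLDB2, which anchors microtubules at the cell cortex, rose by a log2 fold change of 2.41, the receptor phosphatase PTPRF by 1.54, the iron-carrier binding protein LCN2 by 2.11 and the interleukin-6 family cytokine LIF by 1.56. All genes of this paragraph were also higher in R1 than in parental cells, with TNS4, CEACAM5 and PHLDB2 at 1313, 684 and 412 CPM in R1. Against R1, R2 was higher in CEMIP (log2 fold change 0.25, edgeR adjusted p = 2.29e-05). It was lower in LCN2, at 263 CPM against 428 CPM in R1 (edgeR adjusted p = 5.58e-11). Reads of CEACAM5 may be shared with similar genes of its family, so that its count is uncertain.

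The most abundant DEG that fell was PLA2G2A, a secreted phospholipase A2. It was at 954, 1054 and 956 CPM in the parental libraries and 23.1, 24.1 and 27.4 CPM in the R2 libraries (log2 fold change -5.31, SE 0.0598, edgeR adjusted p = 1.04e-29). The membrane progesterone receptor PAQR8 fell from 127 ± 4.26 to 34.4 ± 0.431 CPM, and DAPK1, a death-associated protein kinase, from 108 ± 0.682 to 29.3 ± 1.62 CPM. FCGRT encodes the heavy chain of the neonatal Fc receptor, which recycles internalised IgG, and fell from 81.5 ± 4.84 to 20.4 ± 1.1 CPM (log2 fold change -2.00, SE 0.0697, edgeR adjusted p = 7.45e-19). The secreted lectin REG4 fell by 1.65 on the log2 scale, the sortilin-family receptor SORCS2 by 1.86, and the glycan-processing enzymes MAN1A1 and GCNT1 by 1.70 and 1.65. MAN1A1 trims N-glycans in the Golgi, and GCNT1 builds the core 2 branch of O-glycans. All genes of this paragraph were also lower in R1 than in parental cells, with PLA2G2A, PAQR8 and DAPK1 at 24.8, 34.3 and 30.2 CPM in R1. Against R1, SORCS2 was lower in R2 by 0.57 on the log2 scale (edgeR adjusted p = 2.29e-05) and REG4 higher by 1.11 (edgeR adjusted p = 6.27e-10).

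**Figure D2:**
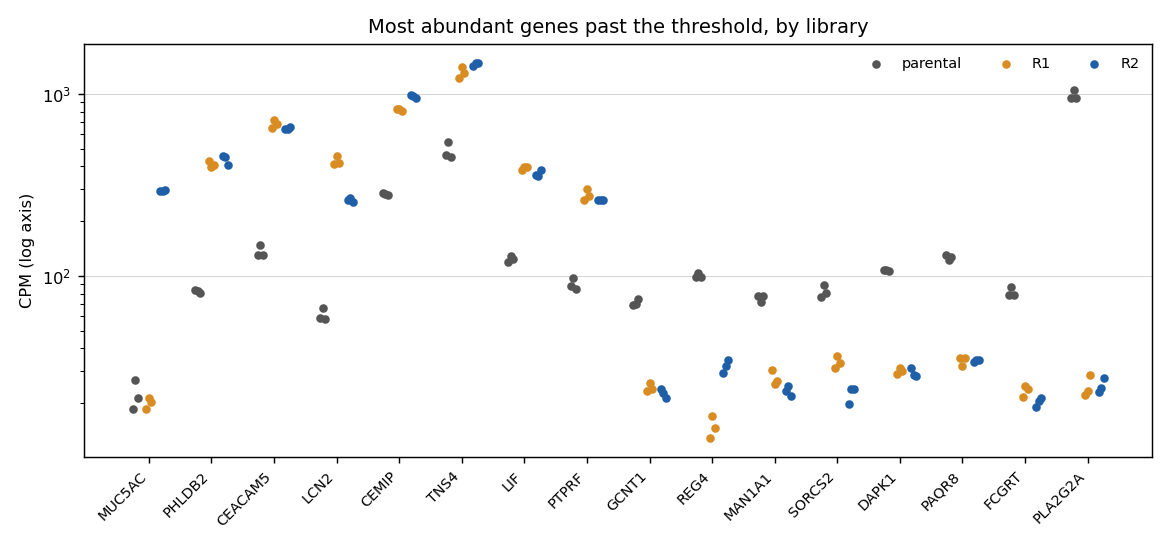
CPM (log axis) of the 8 most abundant DEGs in each direction, with 1 point per library and the 3 lines side by side. In each of these genes, picked as DEGs, the 3 R2 points lie apart from the 3 parental points, and MUC5AC is the gene in which R1 stays with the parental line.

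Among the largest changes at a mean of at least 5 CPM in the higher line, several genes went from no reads to clear expression. RORA, a nuclear receptor, PRRX1, a homeobox factor of mesenchyme, and CXCL14, a chemokine, had 0 counts in every parental library. In the R2 libraries RORA had 373, 364 and 321 counts and was at least 364-fold higher, against 3 counts in the parental libraries together. R1 had moved the same way in every gene of this paragraph, and none of them was a DEG between R2 and R1. RORA had 324, 310 and 288 counts in the R1 libraries. CXCL14 was at 13.7 CPM in R1 and 5.43 CPM in R2 cells, and thus higher in R1 (edgeR adjusted p = 4.68e-08). PGBD5, which derives from a transposase, was at 0.0241 ± 0.0417 CPM in parental and 6.16 ± 0.25 CPM in R2 cells. R1, at 15.4 ± 0.615 CPM, lay above R2 (edgeR adjusted p = 9.77e-09). SMARCD3, a subunit of BAF chromatin-remodelling complexes, had 0, 0 and 1 counts in the parental and 93, 106 and 90 in the R2 libraries, and COL13A1, a transmembrane collagen, 2, 0 and 2 and 180, 176 and 138. The transcription factor KLF7 went the other way, with 126, 102 and 159 counts in the parental and 1, 0 and 0 in the R2 libraries. CA12, a carbonic anhydrase of the cell surface, had 91, 78 and 114 and 1, 1 and 2 counts, and PLXDC2, a transmembrane protein, 711, 641 and 791 and 2, 1 and 2. TUB, the tubby protein, had 331, 289 and 395 and 0, 3 and 0 counts. SH3BGRL kept 2 counts in the R2 libraries together, a ratio of 963 (95% exact counting interval 266 to 7957) for parental over R2. RPL10P12, a pseudogene of the ribosomal protein gene RPL10, fell too, but its reads may come from copies of that gene and its count is uncertain.

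Some genes were read in 1 of both lines only. With at least 10 counts in every R2 library, 17 genes had 0 counts in all parental libraries, and each of them had a count in R1. In the other direction, 26 genes had at least 10 counts in every parental library and 0 in R2, and 12 of them had 0 in R1 as well. In the rest, no R1 library had more than 4 counts, and none of the 26 passed the DEG threshold between R2 and R1. At counts this low in both lines the threshold could hardly be passed, so this does not show that R2 and R1 are alike. FAM171A1, which encodes a membrane protein, had 125, 76 and 121 parental counts and was at least 103-fold lower in R2. The silent genes in R2 included ALDH1A1, a retinaldehyde dehydrogenase (29, 20 and 29 parental counts), the transcription factor WT1 (16, 15 and 15), the inflammasome adaptor PYCARD (10, 13 and 16), the growth factor FGF7 (25, 13 and 37) and the BMP effector SMAD9 (12, 15 and 15). TRPM8, an ion channel that senses cold, and KLK7, a serine protease, were among those read in R2 alone of this pair, with 32, 23 and 38 and 26, 29 and 24 counts. Apart from FAM171A1 and SMAD9, the genes of this group were chosen after their values had been seen.

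To find what set R2 apart from the other resistant line, R2 and R1 were compared in 1 model of all 9 libraries, in which 19102 genes were tested. R2 had 146 DEGs against R1 (0.764%), 41 higher (0.215%) and 105 lower (0.55%). Of the 936 DEGs against parental cells, 61 were also DEGs against R1 in the same direction, 22 higher (0.123% of genes tested) and 39 lower (0.218%). Both comparisons use the same R2 libraries, so this count does not support either of them. Of the 22 higher genes 15 were protein-coding, and of the 39 lower genes 35. In 18 of the 22 and 30 of the 39 the mean level of R1 lay between those of the parental line and R2. R1 itself passed an adjusted p of 0.01 against parental cells, in the direction of R2, in 8 of the higher and 22 of the lower genes. In 14 and 15 genes R1 did not pass in either direction. With at least 10 counts in every library the 61 became 19, and with a test against the fold threshold itself 10.

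MUC5AC, a gel-forming mucin that is secreted by the stomach surface and normally scarce in colon, had the highest level of the higher genes. It lies on chromosome 11 of hg38 from 1157953 to 1201138. Its level was 18.6, 26.8 and 21.4 CPM in the parental, 18.6, 21.3 and 20.4 CPM in the R1 and 295, 294 and 298 CPM in the R2 libraries, so that only R2 of the 3 lines was high. The change in R2 was 13.4-fold (log2 fold change 3.75, SE 0.0728, edgeR adjusted p = 5.00e-24). MUC5AC is 1 of 4 mucin genes that lie side by side, in the order MUC6, MUC2, MUC5AC and MUC5B. MUC6, the mucin of gastric glands, had 0 counts in every parental library, 4, 8 and 5 counts in R1 and 26, 24 and 16 counts in R2, and was at least 22.6-fold higher in R2 than in parental cells. MUC5B, the mucin of airway and gland secretions, was at 18.5, 21.3 and 17.8 CPM in the parental, 32.6, 36.7 and 30.7 CPM in the R1 and 59, 54.4 and 55.8 CPM in the R2 libraries (log2 fold change 1.57, SE 0.0756, edgeR adjusted p = 1.06e-15), and it too was higher than in R1 (log2 fold change 0.76, edgeR adjusted p = 3.78e-08). MUC2, the main mucin of the colon, was at 1.34 ± 0.354 CPM in parental and 2.06 ± 0.565 CPM in R2 cells and did not pass (edgeR adjusted p = 0.0846). The genes on either side of the cluster, chosen after the values had been seen, were AP2A2 (log2 fold change 0.20, edgeR adjusted p = 0.299) and TOLLIP (log2 fold change 0.22, edgeR adjusted p = 0.0171), and neither passed. Reads can be shared between the similar mucin genes, so their counts are uncertain.

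The other genes that R2 raised above both lines were of lower level. C6orf141 had 2, 0 and 3 counts in the parental, 4, 12 and 2 in the R1 and 216, 181 and 174 in the R2 libraries (log2 fold change 6.78, SE 0.287, edgeR adjusted p = 5.84e-17). COLGALT2, which attaches galactose to collagen, was at 0.236, 0.578 and 0.368 CPM in the parental, 1.53, 1.38 and 1.63 CPM in the R1 and 12.7, 11.3 and 13.8 CPM in the R2 libraries (log2 fold change against R1 3.05, SE 0.171, edgeR adjusted p = 5.85e-13). CDH13, a cadherin held in the membrane by a lipid anchor, was at 0.322, 0.559 and 4.56 CPM in parental, R1 and R2 cells. NTSR1, the neurotensin receptor, had 0 parental counts, 2, 4 and 3 counts in R1 and 28, 17 and 25 in R2. ST3GAL1, a sialyltransferase that caps O-glycans, had 1, 0 and 0, then 9, 5 and 5, then 30, 24 and 37 counts in the same order of lines. The uncharacterised loci LOC105379362 and LOC101448202 had 23, 24 and 23 and 16, 22 and 17 counts in R2. Further genes of this set, chosen after their values had been seen, were HEY2, a Notch effector, at 2.02, 1.78 and 8.24 CPM, PRKCH, a protein kinase C, with 0 parental counts and 88, 61 and 56 counts in R2, and RASA3, a GTPase-activating protein for RAS-family proteins, at 0.243, 0.333 and 1.4 CPM.

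Among the genes that R2 held below both lines, KCND3, a voltage-gated potassium channel, GNAI1, an inhibitory G protein subunit, and MEIS3P1, a processed pseudogene whose count is uncertain, did not pass in R1 against parental cells (edgeR adjusted p = 0.0204, 0.402 and 0.518). KCND3 was at 15.4, 13.7 and 15.8 CPM in the parental, 18.4, 18.1 and 18.7 CPM in the R1 and 1.96, 1.3 and 1.5 CPM in the R2 libraries (log2 fold change -3.23, SE 0.156, edgeR adjusted p = 1.14e-15). GNAI1 was at 5.9, 5.2 and 6.36 CPM in the parental, 5.95, 4.39 and 5.07 CPM in the R1 and 0.535, 0.31 and 0.457 CPM in the R2 libraries (log2 fold change against R1 -3.54, SE 0.256, edgeR adjusted p = 8.76e-11). In both genes, which were picked for this difference, the R2 libraries lay below all 6 others. In the next group R1 was already lower and R2 lower still. NPNT, an extracellular matrix ligand of integrins, was at 58.5, 50.9 and 54.5 CPM in the parental, 2.27, 3.08 and 2.88 CPM in the R1 and 0.416, 0.619 and 0.0653 CPM in the R2 libraries (log2 fold change -7.17, SE 0.176, edgeR adjusted p = 4.59e-22). DACH1, a transcription factor, had 157, 144 and 211 counts in the parental, 33, 28 and 34 in the R1 and 6, 4 and 2 in the R2 libraries. CA8, a carbonic anhydrase relative without enzyme activity, kept 1 count in R2, a ratio of 169.5 (95% exact counting interval 30.0 to 6734) for parental over R2. AGPAT4, a lysophosphatidic acid acyltransferase, and PRXL2A had 6 and 6 counts in the R2 libraries together, against 63 and 75 in R1. PLEKHS1, which lay under the limit of 1 CPM in parental cells for this ranking and is named after its values were seen, had 15, 9 and 13 counts in the parental, 141, 120 and 132 in the R1 and 0 in the R2 libraries, and was at least 11.9-fold lower in R2 than in parental cells and at least 131-fold lower than in R1. Of others in this set, again chosen after their values had been seen, GPR161, a receptor of the primary cilium, fell from 66.1 ± 1.87 to 1.45 ± 0.231 CPM with R1 at 5.83 CPM. The semaphorin receptor PLXNC1 fell from 27.7 to 0.639 CPM with R1 at 4.12 CPM, and the cholesterol-esterifying enzyme SOAT1 from 6.53 to 0.205 CPM with R1 at 0.829 CPM. NME4, a mitochondrial nucleoside diphosphate kinase, was at 25.3 ± 1.75 CPM in parental, 25 ± 0.497 CPM in R1 and 6.88 ± 1.19 CPM in R2 cells.

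**Figure D3:**
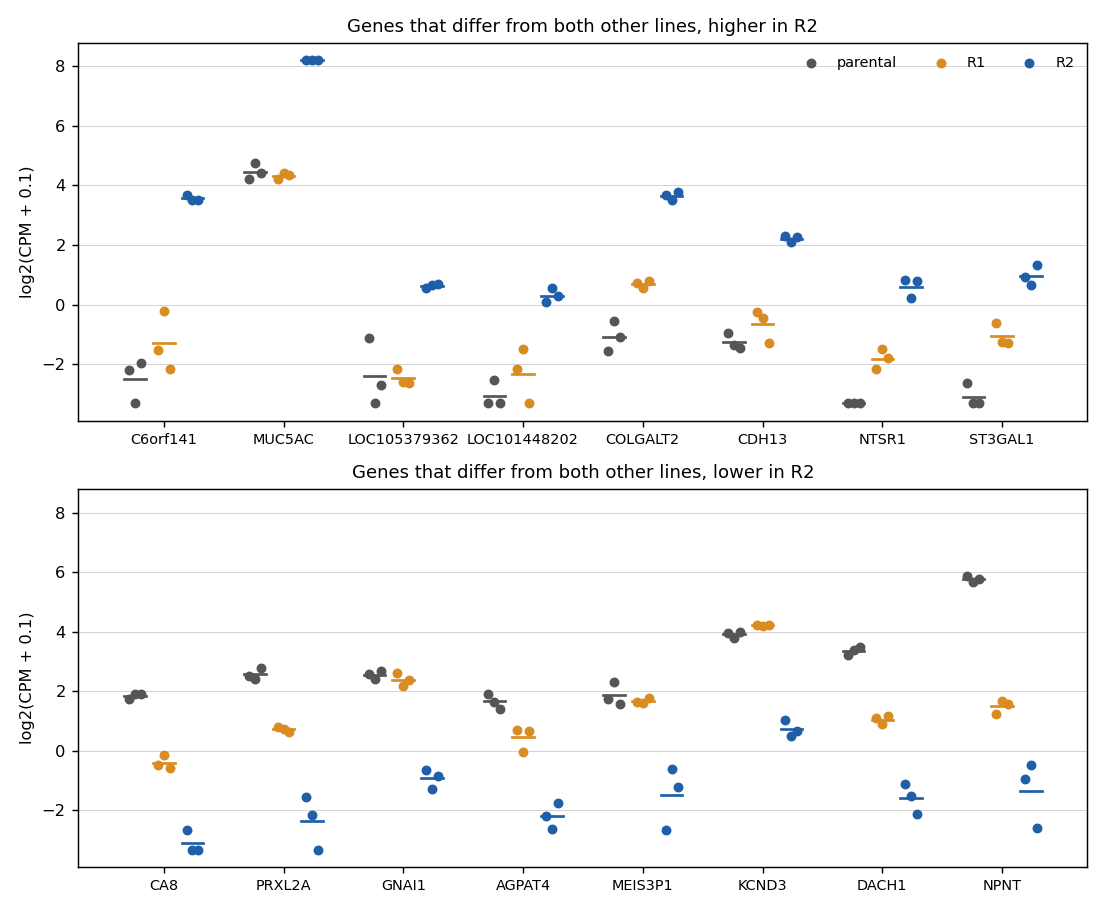
Levels as log2(CPM + 0.1) of the 8 genes that R2 raised most, and the 8 that it lowered most, against both other lines among those with at least 1 CPM in the higher of R2 and parental cells, with 1 point per library and a bar at the mean of 3. R2 lies above all other libraries in the upper row and below them in the lower row, for which these genes were picked. R1 lies near the parental line in some genes, such as KCND3, and between both lines in others, such as NPNT.

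For 10 genes R2 had moved away from the parental line but less far than R1, by the DEG threshold in both comparisons and in opposite directions. Of these, 8 were higher than in parental cells. Examples, chosen after their values had been seen, were SMOC2, a matrix protein of intestinal stem cells, at 0.304, 24.8 and 8.66 CPM in parental, R1 and R2 cells, and AZGP1, a zinc-binding secreted glycoprotein. SPECC1 and CDHR1, a cadherin-related gene, were the 2 lower ones, with SPECC1 at 21.5, 0.538 and 2.42 CPM.

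The genes were then read by pathway, in 33 lists of which 580 members were tested. Over all members, 212 rose and 141 fell, 36.6% and 24.3% of them against 13.7% and 13% of all genes tested, and 61 and 29 were DEGs. Against R1, 46 members were higher and 115 lower, while over all genes of the R2 against parental test 648 (3.63%) were higher and 709 (3.97%) lower than in R1. The lists were chosen with earlier results of these libraries known, so their counts are descriptions.

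Of the ligands and receptors of the ERBB family, 5 rose, 3 fell and 4 did not pass, with a median log2 fold change of 0.19. The EGFR ligands epiregulin and amphiregulin were the DEGs. EREG was at 38.4, 31.6 and 33.4 CPM in the parental, 303, 267 and 291 CPM in the R1 and 143, 145 and 130.4 CPM in the R2 libraries (log2 fold change 2.02, SE 0.066, edgeR adjusted p = 1.90e-19). R2 thus lay above the parental line and below R1 (log2 fold change against R1 -1.04, SE 0.0588, edgeR adjusted p = 6.04e-13). AREG rose from 19.9 ± 0.617 to 63.5 ± 0.234 CPM (log2 fold change 1.67, SE 0.068, edgeR adjusted p = 2.42e-17), TGFA by 0.46 and BTC by 0.68 on the log2 scale. EGFR itself was at 277 ± 4.16 CPM in parental and 286 ± 15.5 CPM in R2 cells and did not pass (edgeR adjusted p = 0.431), but was higher than in R1 (log2 fold change 0.31, edgeR adjusted p = 2.30e-05). Its partners ERBB3 and ERBB2 fell by 0.70 and 0.36. Of the inhibitors of the receptor, ERRFI1, which encodes MIG6, rose by 1.41 and LRIG1 fell by 1.47.

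Of 22 feedback and output genes of the MAPK cascade, 13 rose, 1 fell and 8 did not pass, with a median of 0.48. PHLDA1 was at 17.1, 15.2 and 17.4 CPM in the parental, 108, 104 and 106 CPM in the R1 and 185, 179.9 and 170.2 CPM in the R2 libraries (log2 fold change 3.42, SE 0.0648, edgeR adjusted p = 3.76e-24), and R2 lay above R1 (log2 fold change against R1 0.75, SE 0.0526, edgeR adjusted p = 4.43e-11). The phosphatase DUSP6, which inactivates ERK, rose from 26.8 ± 0.257 to 78.4 ± 0.655 CPM and DUSP5 from 10.1 ± 0.721 to 38.4 ± 0.45 CPM. The signalling inhibitors SPRY4 and SPRED1 rose by 1.33 and 1.18 and were higher than in R1 as well, by 0.45 (edgeR adjusted p = 8.07e-06) and 0.32 (edgeR adjusted p = 0.00129). DUSP4, DUSP5, DUSP6 and EPHA2 were the members lower than in R1, by 0.28, 0.36, 0.22 and 0.25 on the log2 scale, and 2 members were lower without R2 replicate 1. FOSL1, a subunit of AP-1, rose by 1.34, while FOS was the member that fell, by 0.77.

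Of the other receptor tyrosine kinases and their ligands, 4 rose, 6 fell and 7 did not pass (median -0.18). ROR1, a receptor of WNT5A, rose from 0.116 ± 0.0427 to 4.41 ± 0.488 CPM (log2 fold change 5.11, SE 0.344, edgeR adjusted p = 1.40e-12). FGF9 kept 1 count in R2 against 56 in parental cells, a ratio of 54.3 (95% exact counting interval 9.35 to 2181) for parental over R2. The receptors FGFR3 and FGFR1 fell by 1.18 and 0.77, and FGFR1 was nevertheless higher than in R1 by 0.56 (edgeR adjusted p = 1.29e-06). MET, the receptor of hepatocyte growth factor, rose by 0.28. IGF1R did not pass against parental cells (log2 fold change -0.18, edgeR adjusted p = 0.0649) and was higher than in R1 by 0.70 (edgeR adjusted p = 4.51e-07).

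Of the Wnt targets and stem cell genes, 11 rose, 4 fell and 6 did not pass (median 0.17). DKK1, a secreted Wnt antagonist, rose from 1.33 ± 0.0973 to 14.8 ± 2.4 CPM (log2 fold change 3.48, SE 0.172, edgeR adjusted p = 1.78e-15). RNF43, which removes Wnt receptors from the surface, rose by 0.71, TNFRSF19 by 0.96 and EPHB3 by 0.80. TNFRSF19 and EPHB3 were also higher than in R1, by 0.69 and 0.60 (edgeR adjusted p = 1.79e-05 and 3.98e-07). The stem cell factor ASCL2 fell by 0.43, and OLFM4, a stem cell marker, from 1.04 ± 0.391 to 0.0801 ± 0.0906 CPM. Of the Notch pathway, 3 rose, 5 fell and 4 did not pass (median -0.09), with the ligand DLL4 and the modifier LFNG lower by 0.99 and 0.82 and HES4, a target, higher by 1.26. Of the TGF-beta and BMP pathway, 7 rose, 4 fell and 10 did not pass (median -0.10). The ligand BMP4 rose from 396 ± 14.6 to 802 ± 17.4 CPM, and LTBP1, which stores TGF-beta in the matrix, was at 8.79, 8.81 and 9.09 CPM in the parental, 5.28, 4.33 and 4.32 CPM in the R1 and 0.476, 0.867 and 0.588 CPM in the R2 libraries and thus lower than in both. Of the YAP targets, 6 rose, 3 fell and 5 did not pass (median 0.25). NT5E, which makes adenosine at the cell surface, and DLC1, a GTPase-activating protein, rose by 3.35 and 4.62 and were above R1 by 1.09 and 1.39 (edgeR adjusted p = 2.43e-07 and 7.27e-08). CCN1 and CCN2, the standard YAP targets, did not pass, at log2 fold changes of 0.15 and -0.13.

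Transcription factors of the intestinal epithelium were mostly lower in R2, in a list that also holds A1CF, which is not a transcription factor. Of 18 members tested, 4 rose, 10 fell and 4 did not pass, with a median of -0.47, the lowest median of the 33 lists. CDX2, which sets intestinal identity, was at 404, 433 and 402 CPM in the parental and 284, 278 and 287 CPM in the R2 libraries (log2 fold change -0.54, SE 0.042, edgeR adjusted p = 2.48e-11). HNF4A fell by 0.63, GATA6 by 0.98, KLF5 by 0.82 and CDX1 by 0.65, and the nuclear receptor NR5A2 and the RNA editing cofactor A1CF by 2.57 and 3.47. Among the 4 that rose were the homeobox gene ISX, from 0.0897 ± 0.108 to 3.11 ± 0.723 CPM, and KLF4 and ONECUT2, by 1.11 and 0.67. Between R2 and R1, 1 member was higher and 1 lower: ELF3, an epithelial ETS factor, was lower by 0.42 (edgeR adjusted p = 4.74e-07) and KLF4 higher by 0.30 (edgeR adjusted p = 0.00474). No member was higher without R1 replicate 3 or without any 1 of the R2 replicates.

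Of the genes of absorptive colonocytes, 3 rose, 6 fell and 6 did not pass, and the 5 DEGs among them fell (median of the list -0.22). These 5 were of low level in both lines. FABP1, a fatty acid carrier, had 76, 44 and 90 counts in the parental and 19, 11 and 15 in the R2 libraries, and the brush border peptidase DPP4 fell by 1.16 on the log2 scale. FABP2 and sucrase-isomaltase, SI, had 0 counts in R2 against 22 and 16 in parental cells, and the call of SI was lost without R2 replicate 1 (edgeR adjusted p = 0.0111) and without R2 replicate 2 (edgeR adjusted p = 0.0118). VIL1, a brush border protein, rose by 0.26.

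Goblet cell and mucus genes moved in both directions. Of the 17 tested, 5 rose, 6 fell and 6 did not pass (median -0.19). Beside the 3 mucins described above, SPINK4, a protease inhibitor of goblet cells, rose by 0.80. ATOH1, the transcription factor that specifies secretory cells, had 36, 26 and 33 counts in the parental libraries and 0 in R2, and ITLN1, a lectin of goblet cells, 19, 11 and 16 and 0. Both genes had 0 counts in R1 as well. CREB3L1 fell from 69.3 ± 4.26 to 5.73 ± 0.612 CPM (log2 fold change -3.59, SE 0.0905, edgeR adjusted p = 8.26e-22), and R1, at 13.7 ± 1.76 CPM, lay above R2. AGR2, a disulfide isomerase needed for mucin folding, fell from 526 ± 4.91 to 207 ± 8.23 CPM, and TFF3 by 0.39. Of the gastric and foregut genes, which share MUC5AC and MUC6 with this list, 2 rose, 2 fell and 3 did not pass (median -0.14), REG4 and lysozyme, LYZ, being the ones that fell. LYZ lost its call without R2 replicate 1 (edgeR adjusted p = 0.0158) and without R2 replicate 3 (edgeR adjusted p = 0.0127). REG4, at 98.5, 104 and 99.1 CPM in the parental, 12.9, 16.9 and 14.7 CPM in the R1 and 29.4, 31.8 and 34.7 CPM in the R2 libraries, was higher in R2 than in R1 (log2 fold change 1.11, edgeR adjusted p = 6.27e-10). Of the enteroendocrine and neuronal secretory genes, 5 were tested and GAL, the neuropeptide galanin, rose from 8.65 ± 1.68 to 33.4 ± 1.69 CPM, the other 4 not passing (median 0.42).

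Genes of cell junctions moved in both directions, while keratins and some mesenchymal genes were higher. Of the junction genes, 4 rose, 8 fell and 10 did not pass (median -0.13), with 5 that fell when R2 replicate 2 was left out. CLDN2, a claudin of leaky junctions, was the DEG, at 0, 0.578 and 0.21 CPM in the parental and 18.2, 18.8 and 19.3 CPM in the R2 libraries. CLDN1 rose by 0.85, while CLDN3, CDH17 and EPCAM fell by 0.59, 0.58 and 0.32. E-cadherin, CDH1, was at 378 ± 4.06 CPM in parental and 347 ± 21 CPM in R2 cells and did not pass (edgeR adjusted p = 0.028), except without R2 replicate 1, where it was lower by 0.17 (edgeR adjusted p = 0.00715). Of the keratins, 6 rose, 0 fell and 2 did not pass (median 0.89). KRT8 rose from 5717 ± 139.8 to 7170.2 ± 85.4 CPM, KRT80 by 0.80 on the log2 scale, and KRT7, at 0.713 and 3.42 CPM, was the DEG. Reads of keratin genes can come from their pseudogenes, so these counts are uncertain.

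Of the mesenchymal genes, 5 rose, 0 fell and 5 did not pass (median 1.10). TGFBI, a matrix protein induced by TGF-beta, was at 0.826, 0.939 and 0.63 CPM in the parental and 23, 22.1 and 23.2 CPM in the R2 libraries (log2 fold change 4.85, SE 0.156, edgeR adjusted p = 1.22e-19). S100A4, a calcium-binding protein of motile cells, was at 1.83, 1.95 and 1.37 CPM in the parental, 4.48, 4.27 and 3.13 CPM in the R1 and 13.9, 14.4 and 12.9 CPM in the R2 libraries and so passed the DEG threshold against both. SPARC, at 0.0722 and 1.2 CPM, was a DEG of low level. The transcription factors ZEB1 and SNAI2 did not pass, at 0.502 and 0.204 CPM in R2, VIM had 0 counts in every library, and the receptor kinase AXL was at 0.512 and 0.625 CPM. Of the extracellular matrix and integrin genes, 8 rose, 8 fell and 7 did not pass (median 0.03). COL12A1, a collagen, fell from 26.5 ± 0.662 to 1.84 ± 0.304 CPM (log2 fold change -3.84, SE 0.129, edgeR adjusted p = 3.52e-19), and ITGA5, the fibronectin receptor subunit, rose from 0.368 ± 0.0603 to 8.73 ± 0.306 CPM (log2 fold change 4.57, SE 0.227, edgeR adjusted p = 1.97e-15). Of the extracellular proteases and inhibitors, 8 rose, 4 fell and 8 did not pass (median 0.05), and the 5 DEGs all rose. The kallikrein protease KLK10 rose from 10.5 ± 1.7 to 113 ± 3.03 CPM, the metalloprotease inhibitors TIMP2 and TIMP1 by 2.91 and 2.24, and PLAUR, the urokinase receptor, by 1.43. TIMP3 rose too, by 0.73, and lay below R1 by 1.07 (edgeR adjusted p = 1.77e-12).

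The interferon response list had the highest median of the 33, 1.37. Of its 25 members 19 rose, 0 fell and 6 did not pass, and 12 were DEGs. IFI6, a mitochondrial protein, was at 9.44, 12.3 and 8.46 CPM in the parental, 125, 146 and 137 CPM in the R1 and 144, 151 and 155 CPM in the R2 libraries (log2 fold change 3.92, SE 0.0821, edgeR adjusted p = 1.67e-23). IFI27 was at 0.354, 0.217 and 0.315 CPM in the parental and 16.6, 18.5 and 21.9 CPM in the R2 libraries (log2 fold change 5.94, SE 0.215, edgeR adjusted p = 1.70e-18), and ISG15, a ubiquitin-like modifier, rose from 2.57 ± 0.192 to 20.3 ± 5.97 CPM. The antiviral GTPase MX1 rose by 1.99, IRF9, part of the transcription factor that interferon activates, by 1.78, and the RNA-sensing enzyme OAS3 by 0.99. STAT2 and IRF1 did not pass, at log2 fold changes of -0.02 and -0.18. Against R1 no member was higher and BST2 was the 1 that was lower, a call lost without R2 replicate 2. BST2, a membrane tether of virus particles, had 0 counts in the parental, 33, 23 and 29 in the R1 and 8, 2 and 10 in the R2 libraries.

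The interferon-stimulated response element binds the factor that holds IRF9, and its core is written here as GAAANNGAAA. In the 250 bases before the start, from RefSeq on GRCh38.p14, this core was looked for on both strands, overlapping matches included. A promoter was given for 18 of the 25 members and for 12075 of the genes tested. The core was found before 10 of the 18 (55.6%) and before 295 of the 12075 (2.44%). A match is a run of letters and not a shown binding site. The promoters of 5 genes that rose are shown for where the core stands in them, 5′ to 3′ on the strand of the gene, with matches in capitals.
IFI6, chr1:27672193-27672442, minus strand: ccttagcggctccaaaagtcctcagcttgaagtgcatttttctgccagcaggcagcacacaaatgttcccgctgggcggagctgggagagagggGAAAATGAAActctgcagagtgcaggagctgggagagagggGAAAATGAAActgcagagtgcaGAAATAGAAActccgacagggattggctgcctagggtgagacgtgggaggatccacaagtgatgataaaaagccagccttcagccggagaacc
IFI27, chr14:94110486-94110735, plus strand: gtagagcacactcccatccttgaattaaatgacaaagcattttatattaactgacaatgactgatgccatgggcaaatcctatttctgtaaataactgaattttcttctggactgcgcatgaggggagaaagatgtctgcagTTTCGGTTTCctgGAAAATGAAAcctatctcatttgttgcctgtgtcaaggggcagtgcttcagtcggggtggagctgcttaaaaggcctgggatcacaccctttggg
ISG15, chr1:1013247-1013496, plus strand: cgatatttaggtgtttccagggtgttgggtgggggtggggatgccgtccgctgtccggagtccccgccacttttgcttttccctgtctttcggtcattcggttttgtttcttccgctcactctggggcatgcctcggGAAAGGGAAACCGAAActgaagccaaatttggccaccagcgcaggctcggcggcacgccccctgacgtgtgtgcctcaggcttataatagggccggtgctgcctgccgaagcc
IFIT1, chr10:89392373-89392622, plus strand: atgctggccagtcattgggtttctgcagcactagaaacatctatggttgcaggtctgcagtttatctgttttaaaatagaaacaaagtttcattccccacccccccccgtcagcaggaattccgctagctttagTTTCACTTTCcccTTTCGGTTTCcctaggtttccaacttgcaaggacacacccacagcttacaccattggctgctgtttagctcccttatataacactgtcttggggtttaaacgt
BST2, chr19:17405631-17405880, minus strand: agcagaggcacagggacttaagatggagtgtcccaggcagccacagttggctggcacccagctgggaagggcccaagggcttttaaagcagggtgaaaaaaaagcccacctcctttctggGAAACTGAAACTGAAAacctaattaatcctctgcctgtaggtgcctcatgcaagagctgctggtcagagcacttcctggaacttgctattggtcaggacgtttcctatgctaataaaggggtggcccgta

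In IFI6, the matches began 156, 115 and 93 bases before the start, and in BST2 the 2 matches overlapped, at 130 and 124 bases. IFIT1 and IFI27 rose as well, IFIT1 from 2, 7 and 8 counts to 33, 91 and 82. Of the 10 members with the core 9 rose, and ISG20, with a match 69 bases before the start, did not pass (log2 fold change 0.39, edgeR adjusted p = 0.534). Of the 8 without it 6 rose, namely the DEGs MX1, IRF9 and XAF1 and also OAS1, IFI35 and RSAD2, while STAT2 and IRF1 did not pass. Only the spacing written above was looked for. The windows of OAS1, IFI35 and RSAD2 hold GAAA repeats parted by a single base, which this core does not count.

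Of the antigen presentation genes, 6 rose, 1 fell and 8 did not pass (median 0.47). NLRC5, which switches on class I genes, rose from 64.1 ± 3.28 to 114 ± 3.62 CPM. HLA-B and HLA-C rose by 0.52 and 0.47, and B2M, their light chain, by 0.48. HLA-E and other genes of the HLA region had 0 counts in every library, and reads of this region can be shared between similar genes and alternate sequences, so these counts are uncertain. Of the chemokines and cytokines, 12 rose, 6 fell and 5 did not pass (median 0.68). IL33, an alarmin cytokine, rose from 0.705 ± 0.322 to 19.7 ± 2.97 CPM, IL32 by 1.16 and CXCL8, interleukin-8, by 0.96. In the same list 12 of 23 were lower than in R1 and none higher. CXCL1, CXCL2 and CCL20, which attract neutrophils and lymphocytes, were lower in R2 than in either line. CCL20 was at 8.08, 7.73 and 6.67 CPM in the parental, 11.6, 11 and 11.6 CPM in the R1 and 3.98, 3.41 and 3.14 CPM in the R2 libraries (log2 fold change against R1 -1.69, SE 0.136, edgeR adjusted p = 7.14e-10). CXCL1 was 0.33 lower than in parental cells and 0.43 lower than in R1, on the log2 scale, and CXCL2 0.57 and 0.71. Of the complement genes, 2 rose, 0 fell and 7 did not pass (median -0.01), with 1 that rose without parental replicate 3, R2 replicate 1 or R2 replicate 3 and 1 that fell without parental replicate 2. The complement inhibitor CD46 rose by 0.52, and CD55, which shares that role, was at 227 ± 6.45 CPM in parental, 349 ± 15 CPM in R1 and 225 ± 6.88 CPM in R2 cells (log2 fold change against R1 -0.63, SE 0.0452, edgeR adjusted p = 6.74e-11).

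**Figure D4:**
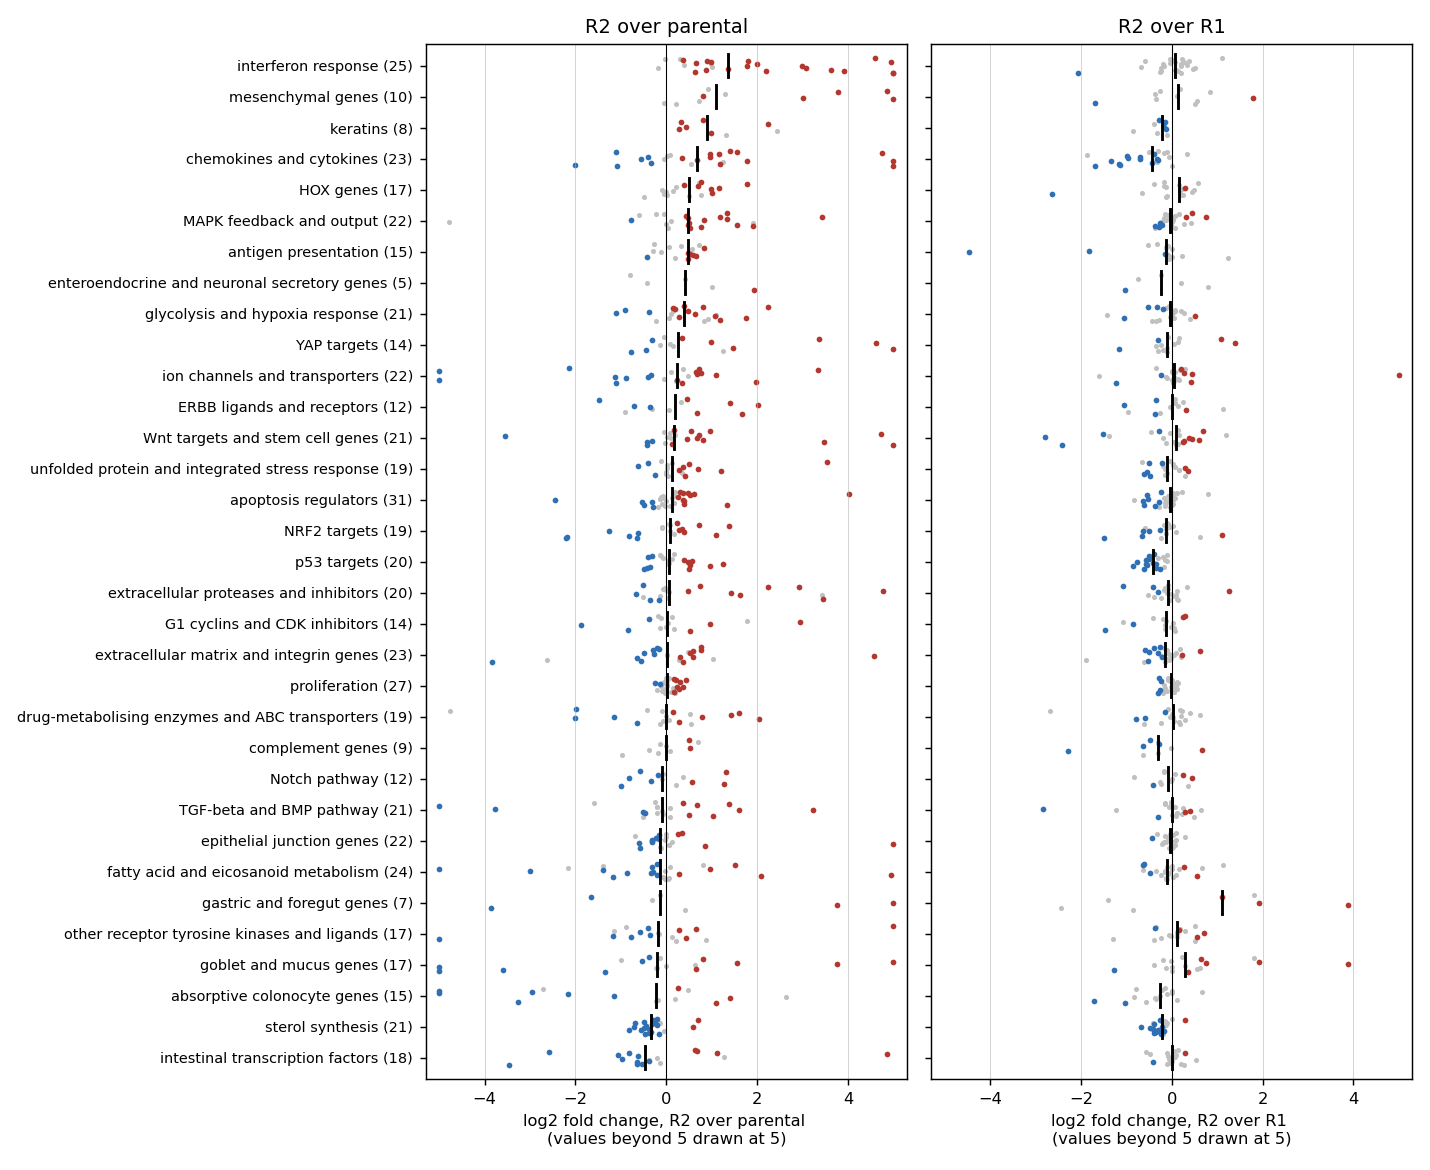
Log2 fold changes of the tested members of the 33 gene lists, R2 over parental on the left and R2 over R1 on the right, ordered by the left median, with the number of members in brackets. Red and blue points passed an adjusted p of 0.01 upwards and downwards, grey points did not, black bars are medians, and values beyond 5 are drawn at 5. The interferon list is shifted to the right on the left side and centred near 0 on the right side, and the p53 targets the other way round, centred near 0 on the left and shifted to the left against R1.

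Of the 33 lists, the p53 targets had the largest share of members lower in R2 than in R1. Of 20 tested, 7 rose, 5 fell and 8 did not pass against parental cells (median 0.06), with 3 that fell without R2 replicate 1 or 2. None was a DEG, where 5.24% of all genes tested were, a share at which a list this short can hold none. Against R1, 13 of the 20 were lower and none higher (median -0.40), where 3.97% of all genes were lower, and with each library left out in turn 12 to 14 were lower. CDKN1A, the cell cycle inhibitor p21, was at 108, 119 and 107 CPM in the parental, 373, 421 and 368 CPM in the R1 and 209.7, 220.3 and 216 CPM in the R2 libraries, so that R2 stood between both others (log2 fold change 0.95, SE 0.0501, edgeR adjusted p = 6.57e-15, and log2 fold change against R1 -0.85, SE 0.0521, edgeR adjusted p = 3.93e-12). GDF15, a stress cytokine, rose from 172 ± 11.8 to 407 ± 20.7 CPM with R1 at 518 ± 26.8 CPM. MDM2, which degrades p53, was at 224 ± 9.25 CPM in parental, 313 ± 18.6 CPM in R1 and 234 ± 14.3 CPM in R2 cells, lower than in R1 (edgeR adjusted p = 1.33e-06) and not different by the test from parental cells (edgeR adjusted p = 0.32). BTG2, an antiproliferative gene, fell by 0.41 and was 0.35 below R1. PHLDA3, which restrains AKT, was 0.48 above parental cells and 0.76 below R1.

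Of the apoptosis regulators, 11 rose, 5 fell and 15 did not pass (median 0.12), with 3 that fell when R2 replicate 1 was left out. BMF, a pro-apoptotic BH3-only gene, fell from 2.52 ± 0.400 to 0.452 ± 0.111 CPM (log2 fold change -2.44, SE 0.312, edgeR adjusted p = 3.23e-07), and BIK, another, by 0.54. HRK, again a BH3-only gene, had 0, 0 and 1 counts in the parental and 2, 5 and 14 in the R2 libraries, and lost its call without parental replicate 1 (edgeR adjusted p = 0.0186). BIRC3, an inhibitor of apoptosis, rose by 0.38 and was 0.63 below R1 (edgeR adjusted p = 2.25e-07), while the related BIRC2 fell by 0.31. Of the unfolded protein and integrated stress response, 7 rose, 3 fell and 9 did not pass (median 0.13). The chaperone HSPA5 rose by 0.36, DNAJB9 by 1.20 and HERPUD1 by 0.70, whereas ATF4, TRIB3 and PHGDH, of the amino acid arm, fell by 0.24, 0.39 and 0.62. Of the NRF2 targets, 7 rose, 6 fell and 6 did not pass (median 0.07). The cystine transporter SLC7A11 rose from 37.5 ± 0.99 to 98.4 ± 5.97 CPM, while the haem-degrading HMOX1 fell by 1.26. The aldo-keto reductases AKR1B10 and AKR1C1 were the DEGs, lower by 2.22 and 2.19, and reads can be shared within this family.

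Sterol synthesis genes were lower in R2 by small amounts. Of 21 tested, 2 rose, 17 fell and 2 did not pass, with a median of -0.33. The list held no DEG, where 5.24% of all genes tested were DEGs, a share at which a list this short can hold none. HMGCS1, an early enzyme of the pathway, was at 426, 391 and 427 CPM in the parental, 297, 277 and 289 CPM in the R1 and 240.3, 233 and 228 CPM in the R2 libraries (log2 fold change -0.83, SE 0.0445, edgeR adjusted p = 1.16e-14). INSIG1, which retains the sterol sensor, was at 105, 107 and 112 CPM in the parental, 107, 106 and 102 CPM in the R1 and 68.6, 62.5 and 67.3 CPM in the R2 libraries (log2 fold change against R1 -0.67, SE 0.055, edgeR adjusted p = 1.09e-09). The sterol carrier STARD4 was among the members that rose, by 0.70. Against R1, 12 of 21 were lower (median -0.22). That count was 6 without R2 replicate 2, 7 without R2 replicate 3 and 8 without R1 replicate 3, so it rested on single libraries more than the count against parental cells, which was 13 to 16 with each library left out in turn.

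**Figure D5:**
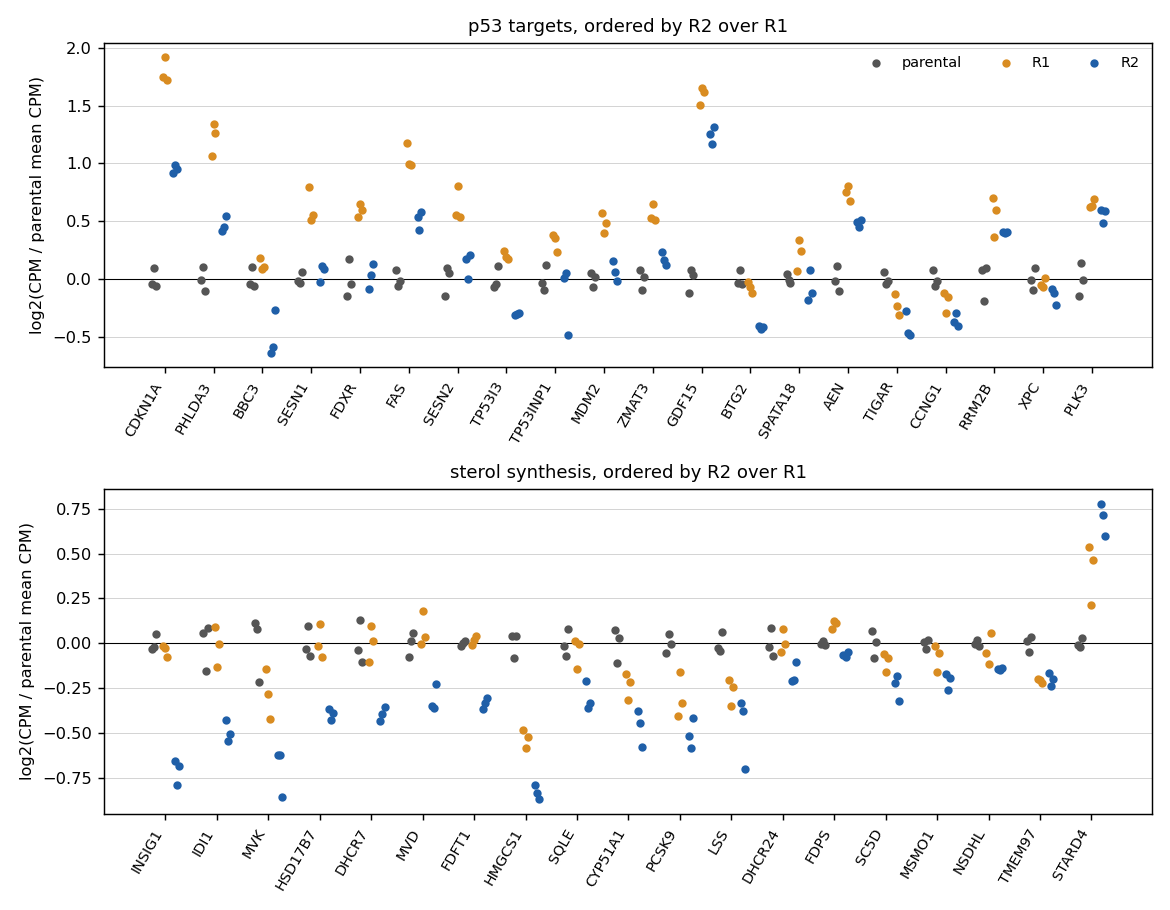
Levels of tested p53 targets (top) and sterol synthesis genes (bottom), as log2 of the CPM over the parental mean CPM, with 1 point per library, ordered from the most to the least lowered in R2 against R1. CDKN1A in R2 stands between the parental line at 0 and R1, and INSIG1 in R2 stands below both.

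Of the fatty acid and eicosanoid genes, 5 rose, 10 fell and 9 did not pass (median -0.14), and 3 rose when parental replicate 3 was left out. Beside PLA2G2A, HPGD, which inactivates prostaglandins, fell from 61.9 ± 5.00 to 7.7 ± 0.548 CPM (log2 fold change -3.01, SE 0.0896, edgeR adjusted p = 2.90e-20). PTGS2, the cyclooxygenase that starts prostaglandin synthesis, rose from 5.71 ± 0.432 to 16.3 ± 1.58 CPM (log2 fold change 1.51, SE 0.117, edgeR adjusted p = 2.43e-11), with R1 higher still at 25.4 ± 2.23 CPM. Of the glycolysis and hypoxia genes, 11 rose, 3 fell and 7 did not pass (median 0.38). The glucose transporter SLC2A3 rose from 6.97 ± 0.325 to 33 ± 0.791 CPM and SLC2A1 from 408 ± 27.2 to 715 ± 20.2 CPM, both lower than in R1, by 0.53 and 0.33 on the log2 scale. NDRG1 and PFKFB4, both known as hypoxia-induced, fell by 1.11 and 0.92. Of the drug-metabolising enzymes and ABC transporters, 6 rose, 4 fell and 9 did not pass (median 0.00), with CYP1A1 lower by 2.01 and the diamine oxidase AOC1 higher by 2.04. Of the ion channels and transporters, 9 rose, 8 fell and 5 did not pass (median 0.23). CFTR, the chloride channel of crypt cells, was at 33.9, 33.2 and 33.1 CPM in the parental, 103, 95.9 and 94.8 CPM in the R1 and 139, 131 and 124 CPM in the R2 libraries (log2 fold change 1.97, SE 0.0595, edgeR adjusted p = 3.51e-20). SLC5A1, the sodium-glucose transporter, rose by 3.34. ANO1, a calcium-activated chloride channel, was at 34.6, 29.9 and 30.5 CPM in the parental, 35.3, 31.7 and 36.2 CPM in the R1 and 16.3, 14.7 and 13.1 CPM in the R2 libraries, lower than in both.

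Of 27 proliferation genes tested, 8 rose, 2 fell and 17 did not pass (median 0.01). None was a DEG, but with 5.24% of all genes tested being DEGs, a list this short can hold none. Only 4 rose without R2 replicate 1 and 5 without R2 replicate 2 or parental replicate 3, and 1 fell without R2 replicate 1 or 2 or parental replicate 1 or 3. MKI67, the Ki-67 antigen, rose by 0.31 and RRM2, which makes deoxynucleotides, by 0.44, while the replication helicase subunit MCM5 fell by 0.26. Of the G1 cyclins and CDK inhibitors, 3 rose, 3 fell and 8 did not pass (median 0.03). The G1 kinase CDK6 fell from 58.9 ± 2.55 to 15.9 ± 3.24 CPM (log2 fold change -1.88, SE 0.0921, edgeR adjusted p = 1.52e-15), and cyclin D1, CCND1, rose by 0.51. Cyclin D2, CCND2, was at 157, 155 and 143 CPM in the parental, 248, 230.3 and 224 CPM in the R1 and 87.7, 85.2 and 81 CPM in the R2 libraries, higher in R1 and lower in R2 than in parental cells (log2 fold change against R1 -1.47, SE 0.0542, edgeR adjusted p = 1.01e-16). CDKN2A, a DEG of low level, had 3, 0 and 1 counts in the parental and 10, 11 and 11 in the R2 libraries. Of the HOX genes, which mark position along the body axis, 7 rose, 0 fell and 10 did not pass (median 0.49), and 4 rose when parental replicate 1 or R2 replicate 1 was left out. HOXB6 rose from 29.5 ± 2.5 to 66.1 ± 4.03 CPM, and HOXB5, HOXB8 and HOXB9 by 0.99, 0.70 and 0.38. HOXC13, the DEG of the list, had 6, 9 and 1 counts in the parental and 25, 13 and 17 in the R2 libraries and lost its call when any of 4 of the 6 libraries was left out (edgeR adjusted p = 0.0455 without parental replicate 3).

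By position, the medians of whole chromosomes differed little, while windows of low median were frequent on chromosome 19. In the 10781 genes that reached a mean of 50 counts, the median log2 fold change per chromosome lay between -0.04 and 0.04. Over 1046 windows of 20 neighbouring genes, 11 had a median of at least 0.2 and 14 of at most -0.2. Of these 14, 7 were on chromosome 19, which held 716 of the 10781 genes. The median of chromosome 19 was -0.03 against parental cells and -0.05 against R1. The lowest, from ZNF649 to ZNF525 on chromosome 19, had a median of -0.33, and 18 of its 20 genes, mostly zinc finger genes of the KRAB family, were lower in R2. A second zinc finger cluster, from ZNF682 to ZNF254, had a median of -0.29 with 19 of 20 genes lower, of which 5 passed the test. The highest medians, of 0.26, stood on chromosome 17 from TOP2A to GHDC, a window that holds TNS4 and KRT19, on chromosome 1 from TSEN15 to NEK7, which holds PTGS2 and PLA2G4A, and on chromosome 1 from LOC729737 to PUSL1, which holds ISG15 and some mitochondrial pseudogenes. Zinc finger genes of a cluster are similar in sequence and can share reads, and windows start 10 genes apart, so that neighbouring windows share genes.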

How the data were processed

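Stranded poly(A) libraries of parental, R1 and R2 cells, 3 per line, were sequenced as read pairs. The authors mapped these with STAR to hg38, ran HTSeq 0.9.1 in its reverse-strand mode and deposited raw counts per gene symbol, without normalization. The annotation is not given in the sources used here. The deposited counts held no rows for unassigned reads. Positions come from RefSeq, which matched 17531 of the 17869 genes tested.

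Counts of the 6 R2 and parental libraries were tested in R 4.3.3 with edgeR 4.0.16 (TMM, quasi-likelihood test, Benjamini-Hochberg adjustment), and R2 against R1 in 1 model of all 9 libraries. CPM used TMM factors over all 9 libraries, from 0.984 to 1.02, so that the 3 lines share a scale. The SE was derived from the test statistic. Folds against 0 counts are lower bounds against 3 counts over the group, and against 1 to 3 counts ratios with an exact 95% interval. Named were, in each direction, the 8 DEGs of largest change (at least 5 CPM in the higher line), the 8 most abundant, the 8 with the largest difference from both other lines (at least 1 CPM), and list members, DEGs first and then by adjusted p. The rule, the 33 lists and the alternatives were chosen with earlier results of these data known. Alternatives were other scalings and filters, DESeq2 1.42.0 with and without lfcShrink, a test against the fold threshold, another threshold, the replicate number as a block and each library left out. The tests were tried on simulated counts. Counts differed between replicates by 1.89 to 6.58 times what read sampling gives, so no library was a copy of another, and mitochondrial genes held 6.57% to 7.27% of the counts. Some genes that were tested are not reported here by name.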

Additional observations from a re-analysis of the deposited data

Results flagged for a closer look

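For 16 genes the effects of R1 and R2 against parental cells differed by a direct test between both lines (edgeR's quasi-likelihood test on all 9 libraries), and they are those with the largest difference from both other lines among the genes with at least 1 CPM in the higher of R2 and parental cells. Higher in R2 than in R1, as log2 fold changes, were C6orf141 (4.96), LOC105379362 (4.01), MUC5AC (3.88), LOC101448202 (3.12), COLGALT2 (3.05), CDH13 (3.01), NTSR1 (2.91) and ST3GAL1 (2.24). Lower were CA8 (-4.56), PRXL2A (-3.57), GNAI1 (-3.54), KCND3 (-3.52), AGPAT4 (-3.31), MEIS3P1 (-3.28), DACH1 (-2.95) and NPNT (-2.85). The adjusted p of that test was at most 0.000573, for LOC101448202, and the smallest was 7.44e-23, for MUC5AC. CA8 had 1 count in the R2 libraries, so that its fitted value depends on the prior count and is no bound. These genes were picked for this difference, and their values describe it and do not test it again. Groups of 3 libraries are too small for a check of single outlying libraries.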

How the results depend on the processing

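The filter on low counts, shrinkage and the fold threshold changed counts of DEGs by over 1.5 times in the cases given next. With at least 10 counts in every library, there were 309 DEGs of R2 against parental cells (185 higher, 124 lower), 41 against R1 (11 and 30) and 19 against both (4 and 15). Under DESeq2's lfcShrink (type normal) the counts were 312 (180 and 132), 4 (2 and 2) and 4 (2 and 2), the last being C6orf141, MUC5AC, KCND3 and MAP7D2. With a test against the fold threshold itself they were 412 (225 and 187), 23 (9 and 14) and 10 (4 and 6), and of the list members 37 rose and 16 fell, since that test asks for more than a change. With a threshold of 1 the counts against R1 and against both were 270 (77 and 193) and 116 (41 and 75). Leaving out each library in turn gave 842 to 945 DEGs against parental cells (453 to 511 higher, 389 to 434 lower), 117 to 161 against R1 (31 to 47 and 86 to 114) and 54 to 66 against both (17 to 24 and 35 to 42). DESeq2's Wald test gave 811, 125 and 58. No gene named by the rule, and no list member, changed its direction under any alternative. Libraries with the same replicate number did not consistently deviate together. Their correlations were 0.138, -0.0791 and -0.134 for parental and R2, and 0.221, -0.103 and 0.00695 for R1 and R2. Libraries of different number reached 0.275 (parental replicate 2 with R2 replicate 3), so the number was not taken as a pairing. With it as a block there were 873 DEGs against parental cells, 163 against R1 and 67 against both. Of 290 DEGs the mean was under 10 counts per library, where depth limits what can be said of their size.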

Other observations

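The DEGs of R2 differed from the genes tested at large in the CpG content of the 250 bases before their start, from RefSeq on GRCh38.p14. The ratio of observed to expected CpG was at least 0.6 in 53.4% of the 356 higher and 54.1% of the 316 lower DEGs with a promoter given, and in 75.7% of the 12075 genes tested that have one. The median ratio was 0.636 and 0.635 in the DEGs and 0.808 in all genes. Of the 17 genes with 0 counts in every parental library and at least 10 in every R2 library, 14 had a promoter given, and 35.7% of these passed the ratio. Of the 26 genes with 0 counts in R2 and at least 10 in every parental library, 22 had a promoter given, and 63.6% of these passed. Many DEGs are of low level, and the part of expression level in this difference was not tested. A core of the sterol regulatory element, TCACNCCAC on either strand, stood before none of the 15 sterol synthesis genes with a promoter given and before 94 (0.778%) of all 12075, which says only that these letters are not in those windows.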
